A study of Mus musculus with 72 samples.

Results

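In mouse embryonic stem cells (ESCs), 1297 promoter sites of the transcription factor Klf4 were examined for their occupancy by Klf4, NANOG, SOX2, OCT4 and CTCF in wild-type cells and in cells without HMGN1 and HMGN2. Merging all peaks of the 4 Klf4 chromatin immunoprecipitation sequencing (ChIP-seq) libraries that shared at least 1 bp gave 8980 sites. A site was chosen by its Klf4 calls, in 2 or more of the 4 lists (5349 sites), and by its position no more than 1000 bp from a protein-coding transcript start (GENCODE vM1, mm9). The 4052 sites farther away are called distal and serve for comparison. The wild-type cells (WT) carried the genotype Hmgn1+/+n2+/+ and the double-knockout cells (DKO) Hmgn1-/-n2-/-. All were ESC lines labelled with the C57BL/6 strain, untreated as far as the labels say, with 2 biological replicates per genotype and antibody. How many independent lines stand behind each genotype is not given in the sources used here. The study held 64 peak lists for 16 antibodies in 3 cell types, of which 5 antibodies were used in ESCs.

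Klf4 is a zinc finger protein that binds GC-rich elements, and it belongs with NANOG, SOX2 and OCT4 to the factors that maintain the undifferentiated state of ESCs. SOX2 and OCT4 bind DNA side by side at many enhancers, and NANOG is often found with them. CTCF binds a long element of its own and takes part in chromatin looping, while HMGN1 and HMGN2 are abundant nucleosome-binding proteins of active chromatin.

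Each list gave, for every peak, the fold enrichment, which is the ratio of reads stacked at the summit to the local background the caller expected there, and the −log10 q of that enrichment. The Klf4 lists were the shortest of the ESC lists, with 4003 to 5924 peaks, against 10222 to 17144 for SOX2, 11140 to 30864 for OCT4, 52307 to 64486 for NANOG and 62069 to 64634 for CTCF. The lowest background that could be worked out from the lists, a measure of depth in reads per position, was 1.12 and 1.19 in the WT Klf4 libraries and 1.43 and 1.57 in the DKO Klf4 libraries. For OCT4 it was 0.924 and 1.31 in WT and 1.03 and 1.43 in DKO. For SOX2 it was 1.5 and 1.56 in WT and 1.74 in DKO replicate 1. The depth of the NANOG and CTCF libraries, and of SOX2 DKO replicate 2, is unknown. The labels list input DNA for each genotype and none for each replicate, and the control each list was called against is not given in the sources used here. If the inputs of a genotype served, a difference between inputs and a difference between genotypes cannot be told apart. No Klf4 list had a peak within 1000 bp of any of 14 fibroblast or 13 B cell marker genes, whereas between 3 and 6 of 17 genes for core pluripotency factors had one. The lists had no ESC peak near Hmgn1, and near Hmgn2 a single NANOG peak in WT replicate 2, so they cannot check the deletions.

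The sequences under the strongest Klf4 promoter peaks are shown first, because the CCAAT pentamer, in capitals, stood near the summit of most of them. The stretches are AW549877 at chr15:3945944-3946008, Hk2 at chr6:82724536-82724600, Sp2 at chr11:96839108-96839172, Mlxip at chr5:123844531-123844595 and Abhd2 at chr7:86417928-86417992, all of mm9 and the plus strand.
AW549877: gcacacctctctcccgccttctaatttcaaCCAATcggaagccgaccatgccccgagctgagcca
Hk2: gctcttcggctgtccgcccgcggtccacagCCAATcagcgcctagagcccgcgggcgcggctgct
Sp2: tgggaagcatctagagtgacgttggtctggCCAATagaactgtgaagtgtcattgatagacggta
Mlxip: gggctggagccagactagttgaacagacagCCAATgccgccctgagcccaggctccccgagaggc
Abhd2: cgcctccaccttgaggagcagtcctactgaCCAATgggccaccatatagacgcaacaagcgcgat

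Stretches from promoters of pluripotency genes are shown because they held the core of the element that Klf4 and its relatives bind (GGGNGTGG), here in capitals. They are Nanog at chr6:122657467-122657506 (plus strand, up to the transcript start), Zfp42 at chr8:44392401-44392468 (plus), Nr5a2 at chr1:138850327-138850394 (minus), Tdgf1 at chr9:110848670-110848737 (minus) and Dppa5a at chr9:78215990-78216057 (minus), in mm9.
Nanog: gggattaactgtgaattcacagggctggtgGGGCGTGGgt
Zfp42: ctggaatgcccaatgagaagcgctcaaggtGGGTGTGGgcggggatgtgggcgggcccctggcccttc
Nr5a2: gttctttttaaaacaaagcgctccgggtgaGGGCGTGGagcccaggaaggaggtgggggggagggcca
Tdgf1: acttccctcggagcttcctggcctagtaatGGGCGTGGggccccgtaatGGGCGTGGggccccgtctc
Dppa5a: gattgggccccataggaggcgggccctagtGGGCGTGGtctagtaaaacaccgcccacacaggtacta
The Tdgf1 stretch held the core in 2 places.

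The last 3 stretches come from sites where NANOG, SOX2 or OCT4 differed most between WT and DKO cells. Capitals mark the SOX core ACAATGG and the octamer ATGCAAAT at Dido1 (chr2:180443922-180443989, plus) and the SOX core at Prrt3 (chr6:113452972-113453038, minus). At Upp1 (chr11:9017092-9017212, plus) the exact letters of the KLF core, the GC box, the octamer and the SOX core were not found within 100 bp of the summit, and nothing is capitalised.
Dido1: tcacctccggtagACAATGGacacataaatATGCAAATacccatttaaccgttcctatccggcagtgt
Prrt3: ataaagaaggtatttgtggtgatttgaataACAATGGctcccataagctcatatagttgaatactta
Upp1: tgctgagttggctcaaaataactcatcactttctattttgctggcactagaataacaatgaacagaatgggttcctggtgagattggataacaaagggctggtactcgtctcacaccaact

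The promoter Klf4 sites lay close to the transcript start. The median distance from the Klf4 summit to the nearest start was 119 bp, 551 summits (42.5%) were within 100 bp and 1102 (85%) within 500 bp. The summit was upstream of the start at 1028 sites (79.3%), with a median position of 81 bp upstream (−81). By annotation, 818 summits (63.1%) fell outside genes, 282 (21.7%) in an intron, 186 (14.3%) in a UTR and 11 (0.848%) in coding sequence. Starts on both strands lay within 1000 bp of 131 sites (10.1%). The sites had a median width of 280 bp and touched 1376 gene symbols, 52 of them with more than 1 site. On the X chromosome 1.29% of genes had a site, whereas on the autosomes the share ran from 4.42% (chromosome 14) to 8.23% (chromosome 17). Just inside the distance limit were sites at Shf (998 bp), Pdpk1 (992 bp) and Glis2 (988 bp), and just outside were sites near Wsb1 (1009 bp), Akap1 (1010 bp) and Zswim1 (1011 bp). The requirement of 2 lists left out 949 promoter sites called in 1 list, whose highest −log10 q had a median of 6.45, against 9.33 for the sites called in 2 lists.

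Motifs were searched as exact letters on both strands in 201 bp windows around the strongest Klf4 summit and, for all 45969 protein-coding transcript starts, around the position 81 bp upstream. The KLF core (GGGNGTGG) was in 37.8% of promoter and 40.7% of distal Klf4 windows, against 14.7% of all promoters. The GC box (GGGGCGGGG), an element of the related Sp factors, was in 16.9% of promoter and 2.34% of distal windows, near the 12.8% of all promoters. The KLF core and the GC box occurred together in 75 promoter windows (5.78%), sharing a base in 4 of them, and 663 windows (51.1%) held neither. The pentamer CCAAT was in 583 promoter windows (44.9%), 21.6% of distal windows and 28.2% of all promoters. The longer box CCAATCA, which contains the pentamer and is the best known element of the factor NF-Y, was in 14.4%, 2.32% and 6.66%. The promoter windows thus shared the KLF core with the distal sites and held CCAAT more often than either other set. Further motifs were rarer. The NRF1 element was in 0.386% of promoter Klf4 windows, 0.0247% of distal windows and 0.992% of all promoters. The ETS element was in 2.08%, 0.222% and 2.31%, and the YY1 element in 0.54%, 0.0247% and 0.433%. Base composition also differed, since promoter windows had a median GC content of 61.7% with 13 CpGs, distal windows 50.7% with 2, and all promoters at the same position 57.2% with 8. These shares are descriptions, as the sites were chosen by Klf4 calls.

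CCAAT, not the KLF core, became more frequent with the strength of the Klf4 call. When the promoter sites were ordered by mean Klf4 −log10 q, CCAAT was in 38.1% of the 260 weakest and 56.5% of the 260 strongest, and CCAATCA in 9.62% and 21.5%. The KLF core was in 38.5% of the weakest and 32.3% of the strongest, and the GC box in 18.1% and 12.3%. Among the 10 strongest sites, the windows of 8 held CCAAT (all but Cdca7 and Gm6728), 3 held CCAATCA, 3 held the KLF core (Camta1, Gm6728 and Mlxip) and only Ppp4r4 held the GC box. The CCAAT pentamer was added to the motif list after the windows of the strongest sites had been seen. Where a KLF core was present, its nearest copy was a median of 27.5 bp from the summit at promoters and 25.5 bp at distal sites.

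**Figure D1:**
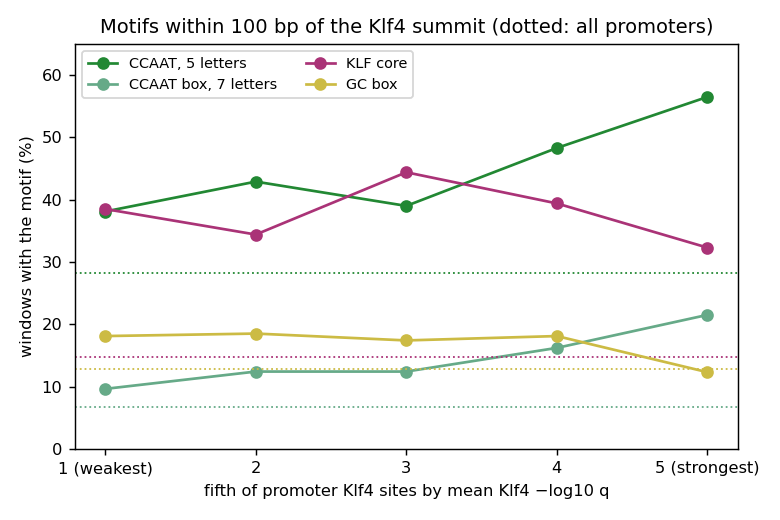
Share of promoter Klf4 windows (percent, y axis) that held each of 4 motifs, in 5 classes of 259 or 260 sites ordered by mean Klf4 −log10 q (x axis); dotted lines give the share over all protein-coding promoters. CCAAT rose from 38.1% in the weakest to 56.5% in the strongest class, while the KLF core was at 38.5% and 32.3%.

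Klf4 itself is described without a test, since its calls chose the sites. Of the 1297 promoter sites, WT replicates 1 and 2 called 1050 (81.0%) and 730 (56.3%), and DKO replicates 1 and 2 called 1006 (77.6%) and 1120 (86.4%). WT replicate 2 was the lowest, and it was also the shortest Klf4 list. Distal sites were called in 81.8% and 67.9% in WT and in 78.1% and 85.9% in DKO. The median fold enrichment of the called promoter sites was 6.94 and 6.75 in WT and 6.47 and 6.24 in DKO.

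All 4 libraries called 486 promoter sites (37.5%), against 43.2% of all Klf4 sites called in 2 or more lists. Both WT and no DKO library called 60 sites (4.63%, against 5.35%), and both DKO and no WT library called 157 (12.1%, against 10.2%). The remaining sites were called by 1 WT and 1 DKO library (254, 19.6% against 16.9%), both WT and 1 DKO library (94, 7.25% against 8.39%) or 1 WT and both DKO libraries (246, 19.0% against 15.9%). A WT-only site needed a call in WT replicate 2, which called 56.3% of promoter sites. The lowest background was also higher in DKO (1.43 and 1.57) than in WT (1.12 and 1.19). How much list length and depth shaped the WT-only and DKO-only classes was not tested. At the 486 sites called throughout, the median −log10 q was 16.1 and 12.1 in WT and 17.3 and 19.1 in DKO, higher in both DKO libraries. The median fold enrichment at these sites was 8.74 and 7.43 in WT and 8.03 and 8.04 in DKO. The log2 difference, DKO minus WT, had a median of −0.03, and 90% of sites lay between −0.85 and 0.79, whereas the median at distal sites was −0.10. Both DKO values were above both WT values at 118 sites (24.3%, against 21.6% of all such Klf4 sites), and both were below at 129 (26.5%, against 30.6%). Across these 486 sites the log2 fold enrichment correlated at r = 0.74 between the WT replicates, 0.80 between the DKO replicates and 0.50 to 0.56 between genotypes, a description over sites that share a library.

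Promoter sites called only in WT or only in DKO cells differed in their CCAAT content. CCAAT was in the windows of 15 of the 60 WT-only sites (25%) and 88 of the 157 DKO-only sites (56.1%), and CCAATCA in 2 (3.33%) and 29 (18.5%). The KLF core was in 38.3% and 30.6%. At distal sites the shares lay close together. There CCAAT was in 54 of 226 WT-only and 108 of 391 DKO-only windows, and CCAATCA in 7 and 9. Of the 486 sites called throughout, 243 held CCAAT. Their median fold enrichment was 8.86 and 7.45 in WT and 8.70 and 8.85 in DKO, with a median log2 difference of 0.07. The 243 sites without it had medians of 8.55 and 7.41 in WT and 7.33 and 7.40 in DKO, with a median difference of −0.10. With the longer box CCAATCA the median difference was 0.08 over 85 sites, and without it −0.04. At distal sites the median difference was −0.12 with CCAAT and −0.10 without, but 0.14 over 48 sites with CCAATCA and −0.11 without. The Klf4 calls and levels chose these classes, so none of this was tested.

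The strongest Klf4 promoter site lay at AW549877 (chr15:3945699-3946192), with a Klf4 fold enrichment of 43.9 and 39.0 in WT and 47.3 and 51.2 in DKO. At Hk2, the gene of a hexokinase of glycolysis, it was 28.0 and 26.5 in WT and 19.8 and 20.1 in DKO, so both DKO values were below both WT values. The Klf4 −log10 q at Hk2 had the opposite order, with 120 and 108 in WT and 131 and 136 in DKO. Sp2, a relative of Klf4 in the KLF and SP family, had a fold enrichment of 21.4 and 19.8 in WT and 10.6 and 15.1 in DKO. Its −log10 q was mixed, at 70.9 and 71.1 in WT and 49.1 and 78.7 in DKO. By fold enrichment Evi5l was higher in DKO, with 16.6 and 16.1 in WT and 29.1 and 29.3 in DKO. Cdca7 had 25.2 and 22.1 in WT and 30.9 and 27.1 in DKO. At Ppp4r4 (38.0 and 22.6 in WT, 30.4 and 33.1 in DKO) the replicates of WT differed by more than the genotypes. The other 4 of the 10 strongest sites, at Camta1, Abhd2, Gm6728 and Mlxip, lay between 15.2 and 26.5 in every library.

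The strongest sites called in WT cells alone were at Ifrd2 (fold enrichment 9.72 and 8.22), Mex3c, Serpinh1 (6.33 and 9.29), Cldn4 (9.57 and 6.36) and Lrsam1. Serpinh1 encodes a collagen chaperone and Cldn4 a tight junction protein. The strongest sites called in DKO cells alone were at Nf2 (10.6 and 11.3), Ccdc61 (4.87 and 12.4), Gatsl3, Rell1 (8.59 and 9.21) and Chtf18. Nf2 encodes the tumour suppressor merlin. At Ccdc61 the replicates of DKO differed more than at the other named DKO-only sites.

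**Figure D2:**
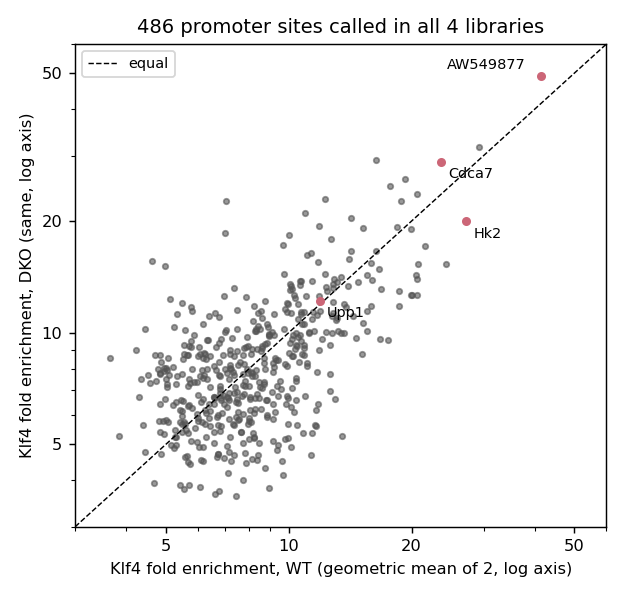
Klf4 fold enrichment of the 486 promoter sites called in all 4 Klf4 libraries, with the geometric mean of the 2 WT libraries on the x axis and that of the 2 DKO libraries on the y axis (both logarithmic); the dashed line marks equal values. The points scatter to both sides of the line, with AW549877 highest, Hk2 below the line and Cdca7 above it.

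Genes of the pluripotency network had promoter Klf4 sites more often than the 6.19% of all 22238 protein-coding gene symbols. Of 17 genes for core pluripotency factors, 6 had a site (35.3%), namely Klf5, Nanog, Nr5a2, Prdm14, Stat3 and Zfp42. Of 23 further pluripotency-associated genes, 7 had one (30.4%), namely Dppa3, Dppa5a, Fbxo15, Rif1, Tdgf1, Tet1 and Trim28. The KLF and SP family had a site at 8 of 26 genes (30.8%), which were Klf3, Klf5, Klf11, Klf13, Klf15, Klf16, Sp2 and Sp4. Of 26 genes of LIF, BMP, FGF and WNT signalling, Axin2, Fgfr1, Fzd7 and Tcf7l1 had a site (15.4%). Sites were found at 4 of 25 Polycomb, methyltransferase and demethylase genes (16.0%), 6 of 43 cyclins and cyclin-dependent kinases (14.0%) and 7 of 58 translation initiation factors (12.1%). None of 20 early lineage specifiers, 39 proteasome subunits or 1113 olfactory receptors had one. Ribosomal protein genes (7 of 79, 8.86%), splicing factors (5 of 62, 8.06%), replication licensing genes (3 of 30, 10%), oxidative phosphorylation subunits (5 of 80, 6.25%), Zfp zinc finger genes (23 of 361, 6.37%), replication-dependent histones (3 of 67, 4.48%), Hox genes (1 of 39, 2.56%) and vomeronasal receptors (1 of 321, 0.312%) were nearer to the share of all genes or below it. No gene of the HMG nucleosome-binding list (0 of 9) had a site.

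NANOG was by far the most frequent partner at promoter Klf4 sites, and it was called at more of them in DKO cells. NANOG peaks overlapped 623 and 712 sites in WT (48.0% and 54.9%) and 989 and 1004 in DKO (76.3% and 77.4%). OCT4 peaks overlapped 74 and 89 sites in WT (5.71% and 6.86%) and 223 and 251 in DKO (17.2% and 19.4%). SOX2 peaks overlapped 115 and 118 sites in WT (8.87% and 9.10%) and 169 and 200 in DKO (13.0% and 15.4%). For each of these 3 factors both DKO libraries were above both WT libraries. CTCF overlapped 157 and 167 sites in WT (12.1% and 12.9%) and 177 and 182 in DKO (13.6% and 14.0%), a much smaller separation.

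The log2 number of overlapped sites was compared between genotypes with limma over the 9 antibodies of the study that reached a mean of 10 sites, with Benjamini-Hochberg adjustment. At an adjusted p under 0.05, 7 of the 9 antibodies differed (77.8%), so a call was the usual result. OCT4 rose by 1.53 (SE 0.13, adjusted p = 0.000628), SOX2 by 0.65 (SE 0.11, adjusted p = 0.00428) and NANOG by 0.58 (SE 0.09, adjusted p = 0.00428) on the log2 scale by limma. The CTCF difference of 0.15 (SE 0.07) did not pass the threshold in limma (adjusted p = 0.126). The DKO lists of NANOG, SOX2 and OCT4 were also longer over the whole genome. With the same number of top peaks taken from each library, the limma differences were 0.30 for NANOG (adjusted p = 0.0185), 0.28 for OCT4 (adjusted p = 0.0297) and 0.14 for SOX2 (adjusted p = 0.077), so the SOX2 call was lost and the OCT4 difference shrank most. With 2 libraries against 2, an exact permutation test cannot pass the threshold of 0.05, and the limma values rest on a spread shared over antibodies.

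The change in calls at single sites ran almost wholly one way for NANOG, SOX2 and OCT4. NANOG was called in all 4 of its libraries at 545 promoter Klf4 sites (42.0%, against 77.2% of all Klf4 sites called in 2 or more lists), in both DKO and no WT library at 210 (16.2%, against 5.83%), in both WT and no DKO library at 4 (against 0.168%) and in none at 189 (14.6%, against 6.36%). OCT4 was called in all 4 at 67 sites (5.17%, against 19.4%), in DKO alone at 94 (7.25%, against 12.7%), in WT alone at 0 (against 0.0187%) and in none at 1011 (against 55.7%). SOX2 was called in all 4 at 93 sites (7.17%, against 36.3%), in DKO alone at 33 (2.54%, against 6.84%), in WT alone at 0 (against 0.243%) and in none at 1074 (against 42.6%). CTCF was called in all 4 at 144 sites (11.1%, against 6.58%), in DKO alone at 12 (against 0.43%), in WT alone at 3 (against 0.168%) and in none at 1097 (against 90.4%). The DKO-only share of NANOG was thus above that of all Klf4 sites, while the DKO-only shares of SOX2 and OCT4 were below theirs.

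The comparison with distal Klf4 sites set the level in context. NANOG overlapped 90.2% and 91.1% of distal sites in WT and 94.6% and 94.6% in DKO. SOX2 overlapped 51.6% and 51.3% in WT and 64.1% and 66.3% in DKO, and OCT4 25.6% and 27.1% in WT and 45.4% and 48.9% in DKO. CTCF overlapped 5.82% and 6.22% in WT and 6.64% and 6.27% in DKO. Promoter sites were therefore poorer in the 3 pluripotency factors and richer in CTCF. In limma on the log2 odds within each library, promoter minus distal, the mean over the 4 libraries was −3.46 for SOX2 (adjusted p = 8.13e-24), −2.80 for NANOG (adjusted p = 2.43e-22), −2.21 for OCT4 (adjusted p = 1.47e-20) and 1.19 for CTCF (adjusted p = 6.72e-16), each with an SE of 0.04. All 9 antibodies (100%) differed in this comparison, and their spread was estimated as a single value by limma.

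**Figure D3:**
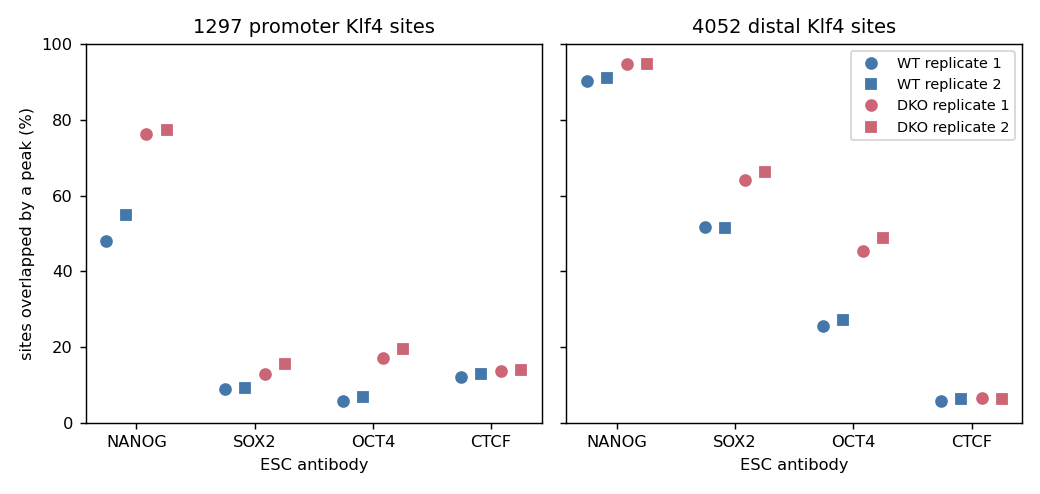
Share of Klf4 sites overlapped by a peak of NANOG, SOX2, OCT4 or CTCF (percent, y axis) at 1297 promoter sites (left) and 4052 distal sites (right), with 1 point for each WT (blue) and DKO (red) library. NANOG at promoters moved from 48.0% and 54.9% in WT to 76.3% and 77.4% in DKO, and CTCF stayed between 12.1% and 14.0%.

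The genotype difference itself was larger at promoter than at distal Klf4 sites for NANOG. Its share rose by 25.4 percentage points at promoters and by 3.97 at distal sites, where little room was left. On the log2 odds scale the promoter difference exceeded the distal one by 0.79 (SE 0.09, limma adjusted p = 5.55e-07), and by 0.34 with the same number of top peaks (adjusted p = 0.00616). Without DKO replicate 1 or DKO replicate 2 the value was 0.83 or 0.74 and no longer passed the threshold in limma (adjusted p = 0.187 and 0.148). For OCT4 the difference was 0.42 (SE 0.09, limma adjusted p = 0.00085), but it was 0.03 with the same number of top peaks (adjusted p = 0.803) and −0.05 at the Klf4 sites called in all 4 lists (adjusted p = 0.81). Without DKO replicate 1 or DKO replicate 2 it stayed at 0.42 and did not pass in limma (adjusted p = 0.187 and 0.16). Neither SOX2 (−0.08, adjusted p = 0.423) nor CTCF (0.06, adjusted p = 0.484) passed in limma. Over all antibodies, 5 of 9 (55.6%) did.

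NANOG, SOX2 and OCT4 also gained promoter peaks where no Klf4 peak was called, and there the relative gain was larger. There were 3093 and 3617 such NANOG peaks in WT against 5729 and 5752 in DKO, a log2 difference of 0.78 (limma adjusted p = 0.00233). SOX2 had 213 and 222 in WT and 439 and 522 in DKO (1.13, limma adjusted p = 0.00127), and OCT4 537 and 663 in WT and 1780 and 2202 in DKO (1.73, limma adjusted p = 0.00127). Here too 7 of 9 antibodies (77.8%) differed. The change at promoter Klf4 sites minus the change at promoters without Klf4 was −0.45 for SOX2 (SE 0.02, limma adjusted p = 0.000407), −0.20 for NANOG (SE 0.02, adjusted p = 0.00406) and −0.17 for OCT4 (SE 0.05, adjusted p = 0.0431). For CTCF it was 0.04 (SE 0.02, adjusted p = 0.166). In this comparison, added after the values were seen, 7 of 9 antibodies (77.8%) passed. The OCT4 call was lost in limma without WT replicate 1 (−0.15, adjusted p = 0.0955) or DKO replicate 2 (−0.11, adjusted p = 0.0981).

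The stem cell factors overlapped each other at promoter Klf4 sites. Of the sites with SOX2 or OCT4, NANOG was present at 135 of 145 and 144 of 155 in WT and at 276 of 287 and 327 of 338 in DKO. All 3 factors were called together at 44 and 52 sites in WT (3.39% and 4.01%) and at 105 and 113 in DKO (8.10% and 8.71%). At distal sites the shares were 23.2% and 24.3% in WT and 40.4% and 43.6% in DKO. Sites with NANOG but neither SOX2 nor OCT4 were the most frequent class with a partner, at 488 and 568 in WT (37.6% and 43.8%) and 713 and 677 in DKO (55.0% and 52.2%). At distal sites this class went from 36.5% and 37.0% in WT to 25.7% and 23.2% in DKO. None of the 3 factors was called at 664 and 574 sites in WT, and at 297 and 282 in DKO. A core of 41 sites carried all 3 factors in all 12 libraries.

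NANOG calls followed the strength of the Klf4 call only in part. Among the 260 weakest Klf4 sites NANOG was called at 40% and 47.3% in WT and 71.5% and 73.1% in DKO, and among the 260 strongest at 58.5% and 63.8% in WT and 81.5% and 82.7% in DKO. The increase was therefore present in both classes. It was also present whatever happened to Klf4, since at the 157 DKO-only Klf4 sites NANOG was called at 42.0% and 48.4% in WT and 73.9% and 73.9% in DKO, and at the 60 WT-only Klf4 sites at 46.7% and 48.3% in WT and 78.3% and 71.7% in DKO. Within each genotype the shares of the DKO-only and WT-only Klf4 classes overlap, whereas those of the weakest and strongest classes do not. The differences between classes were not tested.

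The factors differed in how near they lay to Klf4 and in the sequence of their sites. At promoter Klf4 sites the median distance between summits was 39 to 43 bp for NANOG, 32 to 41 bp for SOX2, 47 to 62 bp for OCT4 and 95 to 109 bp for CTCF, over the 4 libraries of each. The SOX core was in 10.8% of the promoter windows with SOX2 in all 4 libraries and in 0.652% of those without SOX2, while the octamer was in 11.9% of the windows with OCT4 in all 4 and in 0.593% of those without. The core of the CTCF element was in 9.72% and 1.46% of windows with and without CTCF. In all promoters the SOX core was in 1.90%, the octamer in 1.13% and the CTCF core in 1.78%. Windows with SOX2 in all libraries had a median of 3 CpGs and 48.8% GC, whereas promoter sites with no NANOG call had 16 CpGs and 66.2% GC. CCAATCA was in 22.2% of the windows without NANOG, 22.4% of those with NANOG in DKO alone and 8.44% of those with NANOG in all 4 libraries. Sites that gained NANOG calls thus resembled the sites without NANOG in this motif.

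Fold enrichment was compared with limma for each factor over all its merged sites called in all 4 of its libraries, and the sites at promoter Klf4 sites were then counted. Of 552 NANOG sites, 103 were higher in DKO (18.7%, against 13.0% of all NANOG sites) and 45 lower (8.15%, against 11.1%), with a median log2 difference of 0.15 against 0.02 over all sites. Without either DKO replicate far fewer sites passed, here and over all NANOG sites, and the share of higher sites came close to that of all NANOG sites. The median difference was then 0.13 against 0.017 over all sites without DKO replicate 1. It was 0.157 against 0.026 without DKO replicate 2. None of all 39762 NANOG sites passed in limma with −log10 p in place of fold enrichment, so losing a NANOG call under that measure is not particular to any site. There 240 of the 552 and 12311 of all NANOG sites had an unadjusted p under 0.05, with a median difference of 0.54 and 0.32. Of 95 SOX2 sites, 37 were higher (38.9%, against 30%) and 3 lower (3.16%, against 4.06%). Of 73 OCT4 sites, 67 were higher (91.8%, against 86.3%) and 0 lower (against 0.382%), with 67 at an unadjusted p under 0.05 in either direction. Of 156 CTCF sites, 38 were higher (24.4%, against 23.1%) and 38 lower (24.4%, against 20.8%), or 26 and 27 without WT replicate 1, 26 and 25 without DKO replicate 1, and 23 and 23 without DKO replicate 2.

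For SOX2 and OCT4 the whole factor shifted, so that single sites are better read against the shift. The median log2 difference over all sites was 0.93 for OCT4 and 0.36 for SOX2. With each library centred on its median, 15 OCT4 sites at promoter Klf4 sites were higher (20.5%, against 16% of all OCT4 sites) and 10 lower (13.7%, against 20%). Of the SOX2 sites, 14 were higher (14.7%, against 10.7% of all SOX2 sites) and 9 lower (9.47%, against 13.1%). Centring hardly moved NANOG, with 90 higher (16.3%, against 11.5%) and 51 lower (9.24%, against 12.9%). It hardly moved CTCF either, with 37 higher (23.7%, against 21%) and 42 lower (26.9%, against 23.6%).

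**Figure D4:**
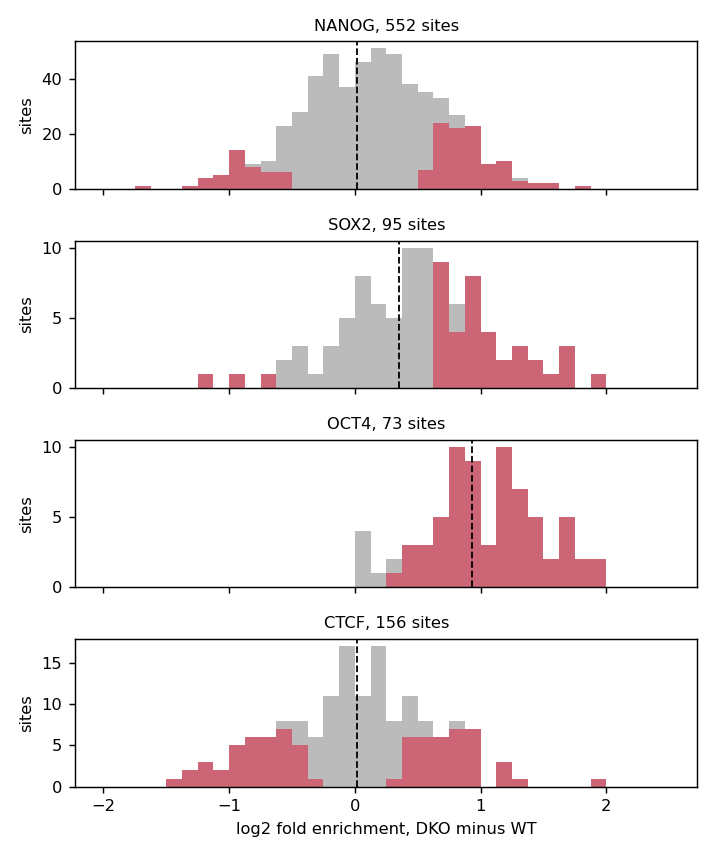
Distribution of the log2 difference in fold enrichment, DKO minus WT (x axis), over the sites of each factor that were called in all 4 of its libraries and overlapped a promoter Klf4 site (number of sites on the y axis); grey bars count all these sites, red bars those with a limma adjusted p under 0.05, and the dashed line is the median over all sites of the factor. All 73 OCT4 differences are above 0 (0.06 to 1.96), on both sides of the dashed median (0.93), and 67 passed, while 38 CTCF sites were higher and 38 lower.

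The site upstream of Upp1 (chr11:9017001-9017289), the gene of a uridine phosphorylase, differed in 3 factors by fold enrichment. NANOG fold enrichment was 91.9 and 89.3 in WT and 28.7 and 27.6 in DKO (log2 difference −1.69, SE 0.17, limma adjusted p = 0.00579). SOX2 was 38.4 and 35.9 in WT and 16.4 and 17.1 in DKO (−1.15, limma adjusted p = 0.00249, and −1.55 when centred). OCT4 went the other way, from 34.7 and 37.5 in WT to 136 and 145 in DKO (1.96, limma adjusted p = 7.24e-08, and 1.0 with centred libraries, adjusted p = 0.00256). Klf4 was level, at 10.9 and 13.0 in WT and 13.4 and 11.1 in DKO. In all 16 libraries the summit was within 26 bp of the strongest Klf4 summit. With −log10 p in place of fold enrichment the NANOG difference was −0.44 (limma adjusted p = 0.205) and the SOX2 difference 0.04 (limma adjusted p = 0.927), so only the OCT4 call was kept at this site (1.85, limma adjusted p = 4.86e-06). Its sequence, printed above with no capitals, held a CCAAT pentamer within 100 bp of the summit and none of the other 4 elements named there as exact letters. Related spellings of these elements were not searched, so the absence of a SOX2 or OCT4 element cannot be read from this.

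At Prrt3 (chr6:113452851-113453084) NANOG and SOX2 fold enrichment were both higher in DKO. NANOG was 26.2 and 23.9 in WT and 63.6 and 64.5 in DKO (1.36, limma adjusted p = 0.00579), and SOX2 was 7.22 and 7.82 in WT and 28.8 and 30.2 in DKO (1.97, limma adjusted p = 0.000534, and 1.57 when centred). At Pccb, the gene of a subunit of mitochondrial propionyl-CoA carboxylase, both were lower. There NANOG was 46.9 and 52.3 in WT and 20.7 and 19.1 in DKO (−1.31, limma adjusted p = 0.00589), and SOX2 8.22 and 8.85 in WT and 4.45 and 4.82 in DKO (−0.88, limma adjusted p = 0.00856, and −1.28 when centred). The groups did not overlap at either gene. With −log10 p in place of fold enrichment both calls at Pccb were lost (NANOG −0.41, limma adjusted p = 0.247, and SOX2 −0.52, limma adjusted p = 0.186). At Prrt3 the NANOG call was lost (0.87, limma adjusted p = 0.0683) and the SOX2 call was kept (1.99, limma adjusted p = 0.000543).

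NANOG was also higher in DKO at Polr3b, which encodes a subunit of RNA polymerase III (3.59 and 2.99 in WT, 11.9 and 10.7 in DKO, limma adjusted p = 0.00579), and at Clptm1 (3.0 and 3.05 in WT, 8.65 and 9.55 in DKO, same adjusted p). It was lower at Cep120, which encodes a centrosomal protein (5.44 and 6.17 in WT, 2.51 and 2.41 in DKO, limma adjusted p = 0.00628). SOX2 was higher at Fgfr1, a receptor of FGF signalling (8.37 and 8.37 in WT, 24.6 and 26.8 in DKO, limma adjusted p = 0.000706), and at Ndufaf3, which encodes an assembly factor of respiratory complex I (4.13 and 3.70 in WT, 11.6 and 14.6 in DKO, same adjusted p). It was lower at the histone demethylase gene Kdm3a (6.42 and 7.83 in WT, 4.45 and 4.12 in DKO, limma adjusted p = 0.023). With centred libraries the SOX2 difference was 1.22 at Fgfr1, 1.34 at Ndufaf3 and −1.12 at Kdm3a, against 1.62, 1.73 and −0.73 without centring. All 3 passed when centred (limma adjusted p = 0.00401, 0.00365 and 0.00599). The Kdm3a call was lost without WT replicate 2 or either DKO replicate (limma adjusted p from 0.0523 to 0.113). With −log10 p in place of fold enrichment the SOX2 call at Kdm3a was lost (−0.18, limma adjusted p = 0.666), and those at Fgfr1 and Ndufaf3 were kept. No NANOG site passed under that measure, where the difference was 2.36 at Polr3b and 2.28 at Clptm1 (limma adjusted p = 0.0515 for each), against 1.78 and 1.59 by fold enrichment, and −0.90 at Cep120 (limma adjusted p = 0.0774), against −1.24.

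OCT4 rose most clearly, beside Upp1, at Spic and at Dido1. At Spic, the gene of an ETS family factor, it was 24.6 and 26.6 in WT and 91.0 and 107 in DKO (1.95, limma adjusted p = 8.05e-08, and 0.99 when centred). At Dido1, whose site holds the SOX core and the octamer near each other, it was 62.9 and 62.3 in WT and 219 and 234 in DKO (1.85, limma adjusted p = 8.73e-08, and 0.89 when centred). NANOG at Dido1 was 69.9 and 70.3 in WT and 66.1 and 63.5 in DKO (limma adjusted p = 0.648), and SOX2 26.6 and 25.6 in WT and 35.0 and 32.2 in DKO (limma adjusted p = 0.18), so by fold enrichment OCT4 alone of the 3 passed at that site. With −log10 p SOX2 passed there too (0.84, limma adjusted p = 0.0407).

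**Figure D5:**
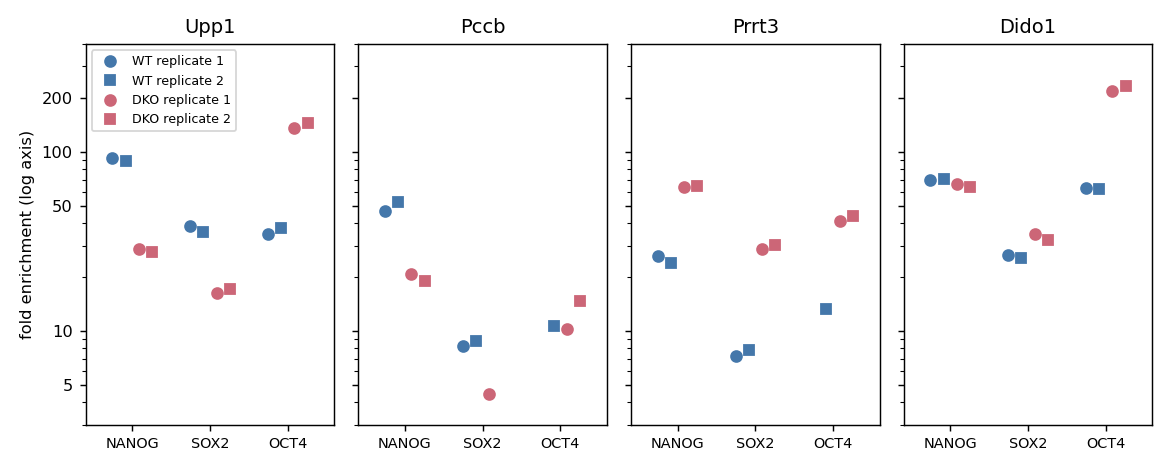
Fold enrichment (logarithmic y axis) of NANOG, SOX2 and OCT4 at the promoter Klf4 sites of Upp1, Pccb, Prrt3 and Dido1, with 1 point for each WT (blue) and DKO (red) library that had a peak overlapping the Klf4 site. At Upp1 NANOG and SOX2 are lower and OCT4 is higher in DKO, while at Dido1 the genotypes lie farther apart in OCT4 (62.9 and 62.3 against 219 and 234) than in NANOG or SOX2.

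Besides Dido1, the sites with the highest NANOG, SOX2 and OCT4 together were at Rbm14, Cnpy1, Tcf7l1 and 1700019D03Rik. At Rbm14, which encodes an RNA-binding protein, NANOG was 89.2 and 93.5 in WT and 86.9 and 90.0 in DKO. OCT4 was 78.6 and 83.7 in WT and 184 and 213 in DKO there. At the other 3 sites NANOG fold enrichment was lower in both DKO libraries. It was 43.5 and 48.8 in WT and 28.6 and 28.6 in DKO at Cnpy1. At Tcf7l1 it was 59.6 and 63.2 in WT and 47.4 and 39.1 in DKO, and at 1700019D03Rik 56.8 and 56.7 in WT and 51.8 and 39.5 in DKO. OCT4 at Cnpy1 reached 155 and 168 in WT and 342 and 365 in DKO, the highest of these sites. At Tcf7l1, the gene of a WNT pathway repressor, OCT4 was 72.9 and 72.7 in WT and 136 and 141 in DKO, and at 1700019D03Rik 90.6 and 88.8 in WT and 142 and 158 in DKO. The OCT4 differences at these 4 sites passed in limma (adjusted p at most 0.000515) and none did with centred libraries (adjusted p at least 0.0817).

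At the pluripotency genes themselves the partners moved unequally. At the Nanog promoter Klf4 was called in 3 libraries (6.59 in WT replicate 1, 6.77 and 6.95 in DKO). OCT4 at Nanog was 11.7 and 13.3 in WT and 41.8 and 40.3 in DKO (1.72, limma adjusted p = 1.34e-07, and 0.75 when centred, adjusted p = 0.00559). SOX2 there was 7.01 and 6.09 in WT and 11.8 and 12.9 in DKO (0.92, limma adjusted p = 0.00773, but 0.0841 when centred), and NANOG 11.8 and 11.1 in WT and 16.5 and 15.4 in DKO (0.48, limma adjusted p = 0.077). OCT4 also passed with centred libraries at Tdgf1, a co-receptor gene of Nodal signalling (limma adjusted p = 0.0219), and at Fbxo15 (limma adjusted p = 0.0127). At Rif1, a regulator of replication timing, OCT4 was high in every library (148 and 152 in WT, 154 and 166 in DKO) and did not pass (0.09, limma adjusted p = 0.611). Relative to the shift of the factor it was lower (centred limma adjusted p = 0.00316).

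NANOG fold enrichment rose at Stat3, the effector of LIF signalling, from 5.61 and 4.81 in WT to 12 and 10.1 in DKO (1.08, limma adjusted p = 0.00969). It rose at the site nearer the start of Dppa3, from 14.3 and 17.7 to 28.6 and 30.1 (0.88, limma adjusted p = 0.0161), and at the DNA demethylase gene Tet1, from 8.96 and 9.98 to 17.2 and 16.8 (0.85, limma adjusted p = 0.0145). The differences in −log10 p were 1.57 at Stat3, 1.11 at Dppa3 and 0.72 at Tet1 on the log2 scale, and like all NANOG sites they did not pass (limma adjusted p = 0.0519, 0.0542 and 0.0948). These 3 sites had SOX2 calls in both DKO libraries and in no WT library, as did 2.54% of all promoter Klf4 sites. NANOG at Nr5a2 was 32.0 and 32.8 in WT and 29.3 and 29.2 in DKO (limma adjusted p = 0.543), and at Prdm14 30.6 and 42.1 in WT and 36.3 and 43.8 in DKO (limma adjusted p = 0.643). Klf4 at Nr5a2 was 22.6 and 18.8 in WT and 15.6 and 12.5 in DKO, whereas at Prdm14 it was called in WT alone (7.88 and 7.19).

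Of the KLF and SP family, Klf15 and Sp4 had Klf4 in all 4 libraries (10.6, 7.12, 7.80 and 8.77 at Klf15; 10.5, 9.62, 9.99 and 8.77 at Sp4, WT first) and no peak of NANOG, SOX2, OCT4 or CTCF in any library. Klf3 had 4 sites, all with NANOG in all 4 libraries, as at 42.0% of all promoter Klf4 sites. Klf5 and Klf11 were called by 1 WT and 1 DKO library, and Klf11 had none of the other 4 factors. No site of this family had SOX2 or OCT4 in a WT library, against 8.87% and 9.10% of all promoter Klf4 sites for SOX2 and 5.71% and 6.86% for OCT4, and with 12 sites this does not set the family apart.

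By fold enrichment, CTCF changed in both directions at single promoters. With −log10 p in place of fold enrichment 43 of the 156 sites were higher in DKO (27.6%, against 19.2% of all CTCF sites). Under that measure 1 was lower (0.641%, against 1.75%), so the split ran mostly one way over all CTCF sites too. The largest rise by p was at Stk40, a kinase-like gene (5.63 and 4.82 in WT, 17.5 and 21.2 in DKO, 1.89, limma adjusted p = 0.00225), followed by Rnf14 (1.2) and 4930519G04Rik (1.21) at the same adjusted p by limma. CTCF was lower at Sh3gl1, an endophilin gene (60.8 and 60.3 in WT, 21.7 and 22.8 in DKO, −1.45, limma adjusted p = 0.00225), at Cdx1 (−1.10, limma adjusted p = 0.00236) and at the clathrin adaptor gene Ap1m1 (52.0 and 45.5 in WT, 20.6 and 18.8 in DKO, −1.31, limma adjusted p = 0.0024). With −log10 p the 3 rises still passed, whereas the falls at Sh3gl1, Cdx1 and Ap1m1 did not (limma adjusted p = 0.0834, 0.052 and 0.173).

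Of the 7 ribosomal protein genes with a promoter Klf4 site, 4 had CTCF in all 4 libraries, as did 11.1% of all promoter Klf4 sites, and CTCF fold enrichment was lower in DKO at all 4, where 24.4% of the CTCF sites at promoter Klf4 sites and 20.8% of all CTCF sites were lower. None of the 4 passed with −log10 p in place of fold enrichment (limma adjusted p from 0.137 to 0.893). At Rpl32 it was 26.1 and 19.5 in WT and 9.65 and 9.49 in DKO (−1.24, limma adjusted p = 0.00441), and at Rps15 31.9 and 32.1 in WT and 12.3 and 16.7 in DKO (−1.16, limma adjusted p = 0.00551). At Rps19 it was 9.64 and 9.83 in WT and 6.12 and 7.13 in DKO (−0.56, limma adjusted p = 0.0162), and at Rpl27 31.4 and 25.7 in WT and 19.1 and 16.8 in DKO (−0.66, limma adjusted p = 0.0177). The other 3, Rpl12, Rpl18 and Rps2, had no CTCF peak at the Klf4 site. Singling out these genes followed a look at the values. CTCF at Axin2, a negative regulator of WNT signalling, was also lower (10.6 and 12.3 in WT, 7.90 and 5.51 in DKO, limma adjusted p = 0.0278).

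The same promoters were also covered by antibodies used in the other cell types of the study. In mouse embryonic fibroblasts, the active mark H3K27ac overlapped 845 and 827 of the promoter Klf4 regions in WT and 855 and 861 in DKO (log2 difference 0.04, limma adjusted p = 0.601). Its reader Brd3 overlapped 605 and 602 in WT and 179 and 262 in DKO (−1.47, limma adjusted p = 0.00346), and CEBPB 42 and 43 in WT and 18 and 19 in DKO (−1.16, limma adjusted p = 0.00028). In resting B cells, Ikaros overlapped 187 and 242 in WT and 118 and 107 in DKO (−0.91, limma adjusted p = 0.00428), and Ets1 108 and 120 in WT and 32 and 29 in DKO (−1.87, limma adjusted p = 0.00027). The whole lists were also shorter in DKO, with 14197 and 14692 CEBPB peaks in WT against 4886 and 5328, and 4524 and 4561 Ets1 peaks against 1220 and 1098. With the same number of top peaks from every library of an antibody, Brd3 (−0.76) and Ikaros (−0.58) were still lower (limma adjusted p = 0.0102 for each). CEBPB no longer passed (−0.11, limma adjusted p = 0.137), and Ets1 turned to 0.15 (26 and 27 regions in WT, 30 and 29 in DKO, limma adjusted p = 0.0703).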

How the data were processed

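ChIP-seq peak lists of Klf4, NANOG, SOX2, OCT4 and CTCF from WT and DKO ESCs, and 11 further antibodies from other cells, were analysed. Per the submitters' processing notes, the authors used bcl2fastq 1.8.4, cutadapt 1.16, BWA 07.17 and MACS2 2.1.1.20160309 with mm9, calling peaks for each library; whether input was the control, and which of 2 ESC inputs per genotype, is not given in the sources used here. The deposited fold enrichment is the authors' ratio of summit pileup to local background. Values of −log10 p and −log10 q were deposited as the authors' caller wrote them, and the deposited score is a whole number derived from −log10 q and was not used. The lowest −log10 q in the ESC lists was 2.0. The lists hold no read counts, so depth was worked out only where pileups came out whole within 0.0005 in −log10 p for at least 85% of peaks.

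Peaks were merged and overlapped in Python 3.11.15 (pandas 2.3.3, numpy 2.4.6), overlaps were checked with bedtools 2.31.1, and sequences were read with pysam 0.24.0. A site's value was that of its highest peak. Where a merged site of a factor reached beyond the Klf4 site, its highest peak could lie outside it. The comparisons used moderated tests in limma 3.58.1 (R 4.3.3) without a replicate block, with Benjamini-Hochberg adjustment at 0.05: log2(overlapped Klf4 sites + 1), the promoter minus distal log2 odds (0.5 added to each count), log2 fold enrichment and, added after seeing the data, log2 promoter peaks at Klf4 sites minus log2 promoter peaks without Klf4. Replicates are those of the labels; if cultures were shared, the p-values measure technical spread only. Sites and gene lists were chosen with earlier results of these data known. Named sites were the 10 with the highest mean Klf4 −log10 q, the 5 strongest called in WT alone and in DKO alone, the 5 highest in NANOG, SOX2 and OCT4, the 3 with the smallest p per factor and direction, members of the core pluripotency and KLF and SP lists, and the sites nearest to the limits. Members of the pluripotency-associated, signalling and ribosomal protein lists were named beyond this rule, after their values were seen. The tests were checked on simulated data.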

Additional observations from a re-analysis of the deposited data

Results flagged for a closer look

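A difference between promoter and distal Klf4 sites in the WT and DKO contrast was found for NANOG (log2 odds 0.79) and OCT4 (0.42). A difference between promoter peaks at Klf4 sites and at promoters without Klf4 was found for SOX2 (−0.45), NANOG (−0.20) and OCT4 (−0.17). All 5 passed the limma test of the difference itself. Without DKO replicate 1 or DKO replicate 2 the promoter against distal calls of NANOG (limma adjusted p = 0.187 and 0.148) and OCT4 (0.187 and 0.16) were lost. The OCT4 call against other promoters was lost without WT replicate 1 (limma adjusted p = 0.0955) or DKO replicate 2 (0.0981). The calls of these factors also grew over the whole genome in DKO cells, and how much of each difference follows from list length or from NANOG being called at nearly all distal sites was not tested beyond the values with equal numbers of top peaks.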

How the results depend on the processing

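The number of promoter Klf4 sites was 2246 with a call in 1 or more lists, 826 with 3 or more and 486 with all 4. It was 1157 with a limit of 500 bp and 1518 with 2000 bp, and 974 to 1189 when a Klf4 library was left out. Of the changes in overlapped sites, the calls for SOX2 (0.14), CEBPB (−0.11) and Ets1 (0.15, turned in sign) were lost with equal numbers of top peaks. Of the promoter against distal differences, OCT4 fell to 0.03 with equal numbers of top peaks and turned to −0.05 at Klf4 sites called in all 4 lists. Leaving out 1 replicate gave 0.66 to 0.91 for NANOG and 0.33 to 0.50 for OCT4, and both calls were lost without either DKO replicate. For promoter peaks at Klf4 sites against other promoters, OCT4 lay between −0.24 and −0.11 when 1 replicate was left out. The cause was not tested for any of these.

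Site counts of fold enrichment (higher, lower) moved as follows. With −log10 p in place of fold enrichment, NANOG had 0 and 0, SOX2 52 and 0, OCT4 64 and 0 and CTCF 43 and 1. These were 54.7% and 0% for SOX2, 87.7% and 0% for OCT4 and 27.6% and 0.641% for CTCF. Over all sites of these factors, in the same order, the shares were 45.9% and 0.286%, 81.4% and 0.0954%, and 19.2% and 1.75%. SOX2 at Upp1 was 0.04 by that measure. With centred libraries, SOX2 had 14 and 9 (14.7% and 9.47%, against 10.7% and 13.1% of all sites). OCT4 then had 15 and 10 (20.5% and 13.7%, against 16% and 20%). With 1 replicate left out, NANOG had 14 to 88 and 6 to 32, SOX2 26 to 35 and 2 to 3, OCT4 62 to 65 and 0, and CTCF 23 to 34 and 23 to 27. Of 21 calls at sites named for their smallest p, 11 were lost with −log10 p, besides the reversal at Upp1, and so were those of NANOG at Stat3, Dppa3 and Tet1 and of CTCF at 4 ribosomal protein genes. The other alternatives lost 1 of the 21, SOX2 at Kdm3a, without WT replicate 2 or either DKO replicate.

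The shared replicate numbers do not pair the libraries by the labels. Deviations of same-numbered libraries correlated at −0.503 over 9 antibodies and at 0.006 to 0.022 over sites. With a replicate block NANOG (adjusted p = 0.00365), SOX2 (0.00201) and OCT4 (8.32e-06) still passed for overlapped sites in limma and CTCF still did not (0.37), and the block gave 97 and 41 NANOG, 40 and 3 SOX2, 68 and 0 OCT4 and 41 and 38 CTCF sites. A crossed block, chosen after seeing the data, called the same 3 ESC factors. The depth of the NANOG and CTCF libraries and of SOX2 DKO replicate 2 is unknown.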
